A study of Homo sapiens with 6 samples.

Results

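The genes described here are 10 genes of Wnt and β-catenin signaling, DKK1, DKK3, SFRP1, CTNNB1, AXIN2, NKD1, LEF1, TCF7, TCF7L2 and MYC, of 40063 genes that had at least 1 array probe. They were listed by name, without a threshold on their values, and all their probes are given, 32 of the 125601 probes on the array that are not controls. RNA levels were read on Agilent arrays with a single dye in SKOV3, an established human ovarian cancer cell line. The study asked which transcripts respond to 1α,25(OH)2D3, the hormonally active form of vitamin D. One group is 3 arrays labelled as SKOV3 cells given 1α,25(OH)2D3 at 100 nmol/L for 72 h, and the other is 3 arrays labelled as cells given vehicle, which was ethanol at a matching concentration, for as long. The labels give no genetic manipulation for either group. No source states whether the 3 arrays of a group came from separate cultures, so the p-values measure the spread between these arrays, which may be technical. A single line in culture is the only model here. The cell line field of the labels reads SKOV-3, whereas the sample titles read SKOV-1.

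In the canonical Wnt pathway, secreted Wnt ligands bind Frizzled receptors and LRP5 or LRP6 at the cell surface, and β-catenin, encoded by CTNNB1, then escapes degradation and enters the nucleus. There it binds the TCF and LEF proteins on DNA and switches on target genes, among them MYC and the feedback inhibitors AXIN2 and NKD1. Inhibitors such as DKK1 and SFRP1 act outside the cell, DKK1 by binding the LRP co-receptors and SFRP1 by binding Wnt ligands. In colon cancer cells the vitamin D receptor is known to bind β-catenin and 1α,25(OH)2D3 to raise DKK1, which is given as background and not as a result of these data.

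Which transcript a probe reads decides what its values mean, so the probe sequences on which the descriptions turn are given here, 5′ to 3′, with the bases inside exons of the MANE Select (principal) transcript in capitals and other bases in lower case. The gene column of the deposited array files only repeats the probe name, and each probe was therefore assigned by an exact sense match to GENCODE transcripts of hg38. The first DKK1 probe crosses a splice junction that leaves the coding part of the last principal exon, exon 4 of 4, for an exon downstream of the gene's principal 3′ end (chr10:52316708-52317961, plus strand). The second joins a segment of an intron of the principal transcript to exon 3 (chr10:52315268-52316314, plus strand). Both match only DKK1 transcripts for which no coding sequence is defined. The brightest probes of CTNNB1 (exon 15, chr3:41239196-41239255, plus strand), TCF7L2 (exon 4, chr10:112964562-112964621, plus strand), AXIN2 (exon 2, chr17:65558270-65558329, minus strand) and DKK3 (exon 7, chr11:11964616-11964675, minus strand) lie wholly in coding sequence. The LEF1 probe reads exon 9 of 12 and 5 bases of the intron after it (chr4:108070658-108070717, minus strand).
DKK1 OEV5_28048: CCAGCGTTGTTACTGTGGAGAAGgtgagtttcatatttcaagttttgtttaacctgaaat
DKK1 OEV5_28243: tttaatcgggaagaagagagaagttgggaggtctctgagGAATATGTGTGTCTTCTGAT
DKK3 A_33_P3261293: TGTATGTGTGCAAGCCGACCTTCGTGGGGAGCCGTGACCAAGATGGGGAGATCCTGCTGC
CTNNB1 A_33_P3421695: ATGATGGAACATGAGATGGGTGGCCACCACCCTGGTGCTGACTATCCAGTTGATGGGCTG
AXIN2 A_24_P298027: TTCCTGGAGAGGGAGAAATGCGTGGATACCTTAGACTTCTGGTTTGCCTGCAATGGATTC
TCF7L2 A_33_P3377304: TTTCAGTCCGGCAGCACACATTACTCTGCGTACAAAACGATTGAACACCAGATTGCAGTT
LEF1 OEV5_48885: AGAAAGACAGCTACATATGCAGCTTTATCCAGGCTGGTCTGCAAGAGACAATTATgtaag

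All values below are log2 intensities from the table the authors deposited, normalized by quantiles between arrays, and a gene is represented by its brightest probe, the one with the highest mean over the 6 arrays. Levels of different probes were not compared with each other. The share of probes well above background ranged from 49.1% to 57.6% over the arrays, no spot was saturated, and Pearson correlations between arrays lay between 0.970 and 0.980. Replicates 1 and 2 of the 1α,25(OH)2D3 label were on slide 1, and the other 4 arrays were on slide 2. CYP24A1, which encodes the enzyme that breaks down 1α,25(OH)2D3 and is a classical gene induced by it, goes against the labels. Its probe in the 3′ UTR (A_23_P28815) read 2.23, 13.84 and 3.30 on replicates 1, 2 and 3 of the 1α,25(OH)2D3 label. On vehicle replicates 1, 2 and 3 it read 14.18, 4.75 and 14.34. The brightest CYP24A1 probe, in coding exon 10 of 12 (A_33_P3369401), was intermediate on vehicle replicate 2. There it read 8.24 and was well above background. It read 3.88 and 4.46 on 1α,25(OH)2D3 replicates 1 and 3, where it was not above background, and 14.64 to 15.25 on the remaining arrays. The intronic CYP24A1 probe OEV5_63001 read 2.21 on vehicle replicate 2, beside 2.14 and 2.15 on 1α,25(OH)2D3 replicates 1 and 3. On vehicle replicate 2 neither this probe nor A_23_P28815 was above background. Every direction below is therefore a direction between labels, and arrays are called by their labels. Of 9 epithelial carcinoma markers 8 had a probe, and all 8 were well above background on every array. KRT7 read 15.78 to 16.41, PAX8 10.62 to 11.74 and KRT18 6.88 to 7.62. Markers of other cell types were also above background, 5 of 5 for leukocytes, 3 of 3 for endothelium and 3 of 4 for stroma. Of these, CD14 read 8.83 to 9.31, and DCN was above background on 0 arrays.

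DKK1 was the one member of the 10 that differed between the labels by more than the threshold used in the study's results, over 2-fold at an unadjusted p under 0.05. With the 1α,25(OH)2D3 label it was 3.15-fold lower. Of the 9 members that could be tested, 6 were lower and 3 higher with that label, and their median log2 fold change was -0.18, beside -0.0057 over the brightest probes of all genes. The count of 1 of 9 genes stands beside 0.73% of the 25070 genes tested the same way (0.223% in the lower direction), and 2 of 21 tested member probes, both of DKK1, stand beside 0.745% of 63377 probes. The study's methods name a stricter threshold, a log2 fold change beyond 2 in size and an adjusted p under 0.05, at which limma called 0 member genes and 0.0% of all probes. The methods' t-test, which the study applied to its other measurements, also called 0 there. Unadjusted p-values under 0.05 in limma were found for 2 of the 9 members, DKK1 and SFRP1, and for 6.77% of all tested probes. The smallest adjusted p of any probe was 0.702. Precision is limited by the small number of arrays, and in a bulk sample fewer cells that express a gene and less RNA per cell cannot be told apart.

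**Figure D1:**
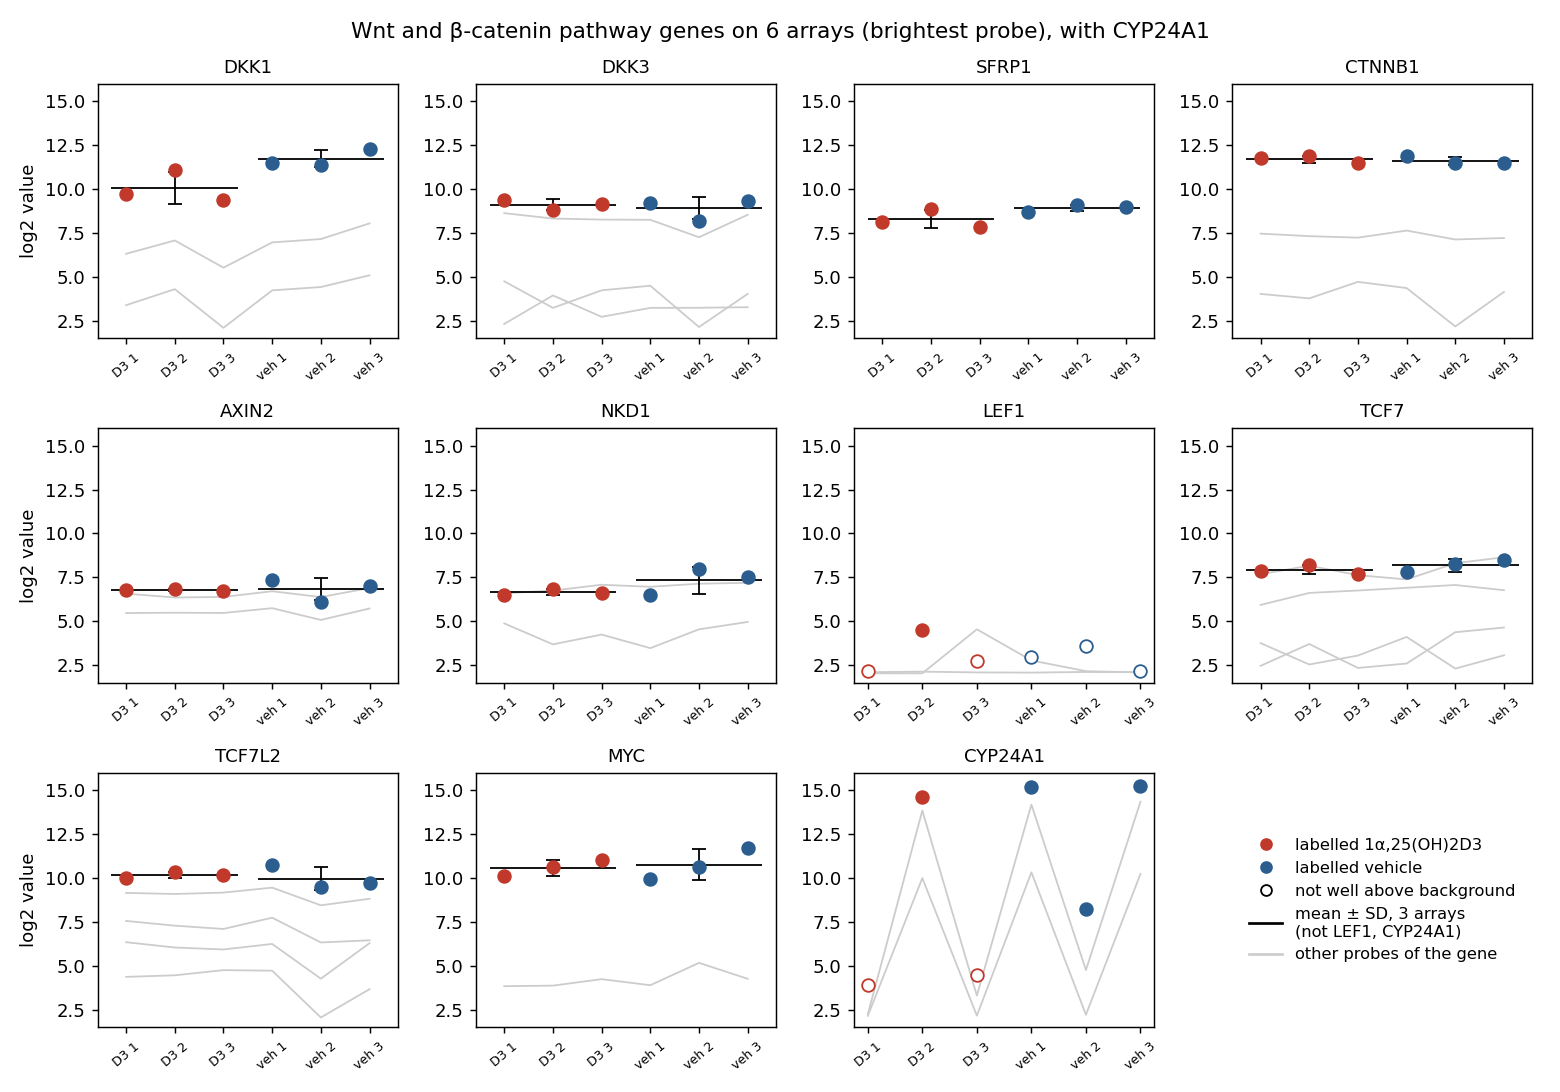
Deposited log2 values (vertical axis, same range in every panel) of the brightest probe of each of the 10 genes and of CYP24A1 on the 6 arrays (horizontal axis, by label, with D3 for 1α,25(OH)2D3 and veh for vehicle); filled points were well above background, black bars are the mean ± SD of 3 arrays (not drawn for LEF1 and CYP24A1), and gray lines are the gene's other probes. DKK1 sits between 9.39 and 11.09 on the 1α,25(OH)2D3-labelled arrays and between 11.39 and 12.28 on those labelled vehicle, while CYP24A1 is high on 1 array of the first label and on vehicle replicates 1 and 3.

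Among the secreted inhibitors, DKK1 had the widest spread of the 9 tested members. Its brightest probe (A_23_P24129) lies in the 3′ UTR in exon 4 of 4, at 52316927 to 52316986 on chromosome 10 of hg38. It read 9.71, 11.09 and 9.39 on replicates 1, 2 and 3 of the 1α,25(OH)2D3 label, and 11.50, 11.39 and 12.28 on vehicle replicates 1, 2 and 3. All 3 vehicle-labelled arrays were above all 3 others, with a gap of 0.29 between the nearest arrays of the groups, and replicates 1 and 3 of the 1α,25(OH)2D3 label stood well below the rest. The means were 10.06 ± 0.90 and 11.72 ± 0.49 (SD, n = 3 each). The log2 fold change was -1.66 with a standard error of 0.45 and a 95% interval of -2.71 to -0.60. In limma the unadjusted p was 0.00699 and the Benjamini-Hochberg adjusted p over all tested probes was 0.702. Only 1 of the 9 tested members had labelled groups that did not overlap, which 12.7% of all genes tested also had. The SD of DKK1 over the 6 arrays was 1.11, and 0.205% of the 23383 genes above background on every array had a higher SD, with a median of 0.242 over those genes.

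The other DKK1 probe above background on every array ran the same way. This splice junction probe OEV5_28048 read 6.31, 7.06 and 5.51 on the 1α,25(OH)2D3-labelled arrays and 6.95, 7.14 and 8.04 on the vehicle-labelled ones. Its log2 fold change was -1.08 with a standard error of 0.43, an unadjusted limma p of 0.0367 and an adjusted p of 0.702, and the groups overlapped. OEV5_28243 was well above background only on 1α,25(OH)2D3 replicate 2 and vehicle replicate 3, where it read 4.29 and 5.08, and was not tested. The brightest probe and the splice junction probe were both lowest on 1α,25(OH)2D3 replicate 3 and highest on vehicle replicate 3.

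SFRP1, which binds Wnt ligands outside the cell, has 1 probe on the array, in the 3′ UTR in exon 3 of 3 at 41262642 to 41262701 on chromosome 8. It read 8.13, 8.83 and 7.84 on the 1α,25(OH)2D3-labelled arrays and 8.71, 9.08 and 8.95 on those labelled vehicle. Replicate 2 of the first label lay inside the range of the vehicle label, so the groups overlapped. The log2 fold change was -0.65, or 1.56-fold lower, with a standard error of 0.27, an unadjusted limma p of 0.0430 and an adjusted p of 0.702. This is under the fold change threshold. Without 1α,25(OH)2D3 replicate 3 the log2 fold change was -0.43 with an unadjusted limma p of 0.143, with normexp background correction it was -0.44 with a p of 0.0986, and the methods' t-test gave a p of 0.109. DKK1 and SFRP1 shared the feature that replicates 1 and 3 of the 1α,25(OH)2D3 label were the lowest pair of the 6, which held for 2 of the 9 members and for 6.62% of the 23383 genes above background on every array. These arrays lie on different slides, and both had a low CYP24A1 signal. A part of slide or of CYP24A1 in this pattern was not tested. The third array with a low A_23_P28815 signal, labelled vehicle replicate 2, was the highest of all for SFRP1 and read 11.39 for DKK1. For the brightest CYP24A1 probe that array was intermediate, at 8.24, while the other CYP24A1 probes were not above background there.

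DKK3, a divergent member of the Dickkopf family, had values of 9.39, 8.79 and 9.13 on the 1α,25(OH)2D3-labelled arrays and 9.22, 8.16 and 9.30 on those labelled vehicle. The groups overlapped, and the array labelled vehicle replicate 2 was the lowest. Between the labels the log2 fold change was 0.21 (95% interval -0.55 to 0.97, adjusted p = 0.866 in limma). Its 3′ UTR probe gave 0.39 (-0.37 to 1.15) and was also lowest on vehicle replicate 2, at 7.25 against 8.24 to 8.62 on the other 5 arrays. The remaining pair of DKK3 probes lies in introns of the principal transcript and was above background on 1 array and on 0 arrays.

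**Figure D2:**
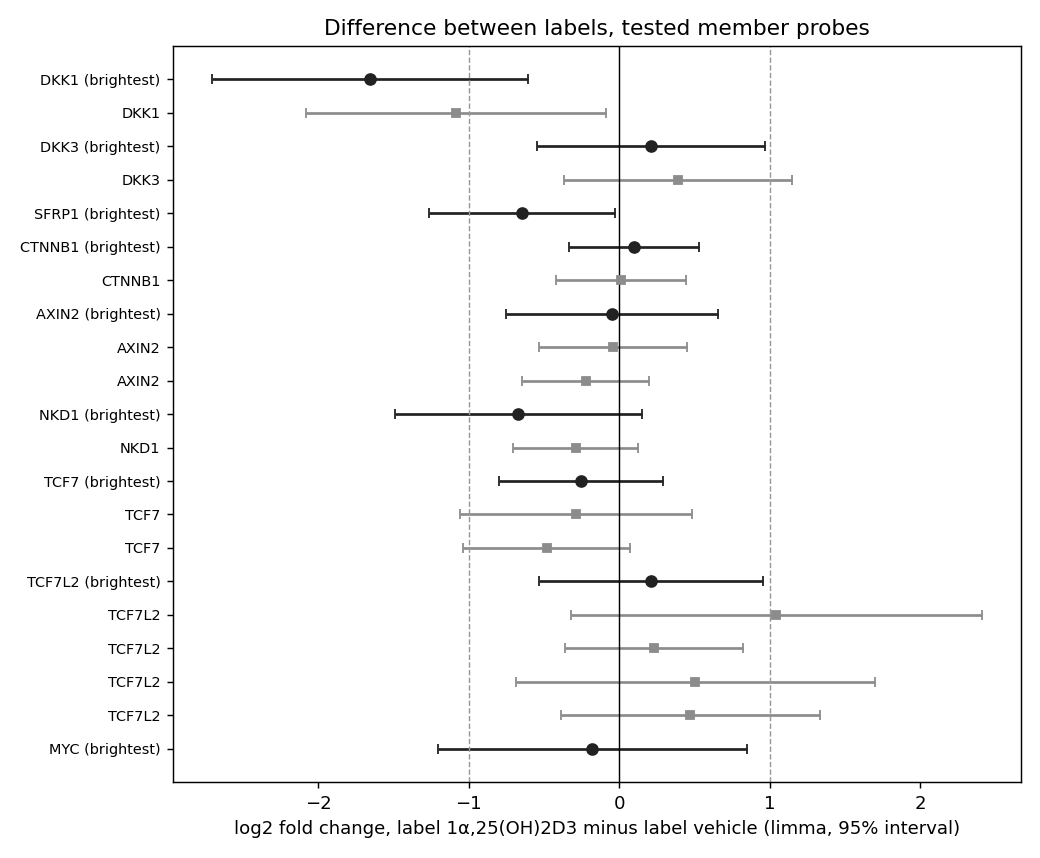
Difference between the labels (horizontal axis, log2 fold change of 1α,25(OH)2D3 minus vehicle) for the 21 member probes tested, with 95% intervals from limma; black circles are the brightest probe of each gene and gray squares its other probes, and dashed lines mark a fold change of 2 in each direction. Both DKK1 probes lie beyond the left dashed line with intervals below 0, the SFRP1 interval ends at -0.026, and every TCF7L2 interval includes 0. The TCF7L2 points at 0.51 and 1.05 are of probes not above background on 1 and 2 vehicle-labelled arrays.

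CTNNB1 encodes β-catenin, the effector of the pathway, whose activity is set mainly by protein stability. Its brightest probe read 11.78, 11.85 and 11.48 on the 1α,25(OH)2D3-labelled arrays and 11.86, 11.47 and 11.48 on those labelled vehicle. The arrays spanned only 0.39 in log2 from lowest to highest, and the groups overlapped. This gave a log2 fold change of 0.10 with a 95% interval of -0.33 to 0.53 (adjusted p = 0.891 in limma), which bounds the difference below a fold change of 2 in either direction at this number of arrays. The 3′ UTR probe gave 0.012 (-0.42 to 0.44). The remaining probe, downstream of the principal transcript in a transcript marked for nonsense-mediated decay, was above background on 2 arrays and was not tested.

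Of the feedback inhibitors, AXIN2 encodes the scaffold on which β-catenin is marked for degradation and is widely read as a marker of pathway activity. Its exon 2 probe, which also matches an overlapping gene without a symbol (ENSG00000266076), read 6.78, 6.83 and 6.73 on the 1α,25(OH)2D3-labelled arrays. On those labelled vehicle it read 7.37, 6.12 and 6.99. The first 3 arrays lay within 0.10 of each other, and the vehicle-labelled arrays lay on both sides of them. Its log2 fold change was -0.046 (95% interval -0.75 to 0.66, adjusted p = 0.973 in limma). The 3′ UTR probe behaved alike, with 5.47, 5.48 and 5.47 against 5.74, 5.07 and 5.72 and a log2 fold change of -0.040. The third probe, across the start of exon 8 and the intron before it, gave -0.22 (-0.65 to 0.20).

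NKD1, which binds Dishevelled and dampens the signal, read 6.48, 6.86 and 6.63 on the 1α,25(OH)2D3-labelled arrays and 6.51, 7.98 and 7.50 on those labelled vehicle. Vehicle replicate 1 fell among the arrays of the other label, and vehicle replicates 2 and 3 lay above all of them. The log2 fold change was -0.67 with a standard error of 0.35 and a 95% interval of -1.49 to 0.15, an unadjusted limma p of 0.0957 and an adjusted p of 0.702. The second 3′ UTR probe gave -0.29 (-0.71 to 0.13), and an intronic probe was above background on 2 arrays. Without the array labelled vehicle replicate 1 the log2 fold change of the brightest NKD1 probe was -1.08, which passed the unadjusted threshold, with an adjusted limma p of 0.377. Without vehicle replicate 2 it was -0.34, with an unadjusted limma p of 0.311.

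The nuclear partners differed in whether they were measured at all. LEF1 was the one member of the 10 without a probe above background on every array. Its probe in the 3′ UTR in exon 12 read 2.07 to 2.13 and was well above background on 0 arrays. The exon 9 probe shown above was well above background only on 1α,25(OH)2D3 replicate 2, at 4.51, and another probe only on replicate 3 of that label, at 4.54. No LEF1 probe could be tested, and no fold change is given.

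TCF7, a TCF factor with activating and repressive isoforms, had a 3′ UTR probe in exon 10 of 10 at 7.87, 8.22 and 7.70 on the 1α,25(OH)2D3-labelled arrays. On those labelled vehicle it read 7.78, 8.28 and 8.49. The groups overlapped, and vehicle replicate 3 was the highest. This amounted to a log2 fold change of -0.25 (95% interval -0.80 to 0.29, adjusted p = 0.774 in limma). The coding probe in exon 7 gave -0.29 (-1.06 to 0.48), and a probe in an intron of the principal transcript, matched to a transcript with a retained intron, gave -0.48 (-1.04 to 0.07). Another pair of intronic probes was above background on 0 arrays.

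TCF7L2, the main TCF partner of β-catenin in many epithelia, was measured by 5 probes. The brightest, in exon 4 of 15 and printed 10 times on each array, read 10.01, 10.34 and 10.17 on the 1α,25(OH)2D3-labelled arrays and 10.72, 9.46 and 9.71 on those labelled vehicle. The first group lay between vehicle replicate 1 and the other vehicle-labelled arrays. For this probe the log2 fold change was 0.21 (95% interval -0.53 to 0.95, adjusted p = 0.862 in limma). The other probes above background on every array, in coding exon 10 and in an intron of the principal transcript, gave 0.23 and 0.47. The remaining pair entered the test only through the 1α,25(OH)2D3 label, so their differences lend no weight to the others. One of them was not above background on vehicle replicate 2, and the other, in the 3′ UTR in exon 15, on vehicle replicates 2 and 3. All 3 TCF7L2 probes above background on every array were lowest on the array labelled vehicle replicate 2.

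MYC, a growth-promoting target gene of the pathway, read 10.08, 10.61 and 11.00 on the 1α,25(OH)2D3-labelled arrays and 9.94, 10.60 and 11.69 on those labelled vehicle. Its brightest probe lies in the 3′ UTR in exon 3 of 3 at 127741022 to 127741081 on chromosome 8. Both groups spanned more than the difference between them, and the lowest and the highest array both carried the vehicle label. The log2 fold change was -0.18 (95% interval -1.21 to 0.85, adjusted p = 0.923 in limma), so a fold change of 2 in the lower direction was not excluded by the interval. The other MYC probe was above background on 1 array.

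Slide and label cannot be fully told apart for these values. Slide 1 held only arrays labelled 1α,25(OH)2D3 and gave no value of its own. Within slide 2, where replicate 3 of that label was set against the 3 vehicle-labelled arrays, and equally with the slide as a block, the log2 fold change of DKK1 was -2.32. Both settings rest on that lone array, the lowest for DKK1 and SFRP1, whose spread is assumed to equal that of the others. The log2 fold change of SFRP1 was -1.07 (adjusted p = 0.966 in limma with the block). CTNNB1 turned to -0.13 and MYC to 0.26, while DKK3 gave 0.24, AXIN2 -0.093, NKD1 -0.69, TCF7 -0.49 and TCF7L2 0.20. Single arrays recurred as extremes. The array labelled vehicle replicate 2, which also had the lowest share of probes above background, was the lowest for 4 of the 9 members (DKK3, CTNNB1, AXIN2 and TCF7L2) and for 15.9% of all 23383 genes. It was the highest for 2 of the 9 members (SFRP1 and NKD1) and for 18.3% of all genes. The array labelled vehicle replicate 1 was the highest for 3 of the 9 (CTNNB1, AXIN2 and TCF7L2) and for 16.8% of all genes.

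The members were also set against the order of the CYP24A1 probe A_23_P28815, which was high on 1α,25(OH)2D3 replicate 2 and vehicle replicates 1 and 3 and low on the other 3 arrays. Since this order is a measured value, no mean or test was made from it. DKK1 lay between 11.09 and 12.28 on the CYP24A1-high arrays and between 9.39 and 11.39 on the low ones, so the ranges overlapped, by the array labelled vehicle replicate 2. That array was intermediate for the brightest CYP24A1 probe, at 8.24, while the other CYP24A1 probes were not above background there. AXIN2 was the 1 member of 9 whose ranges did not overlap, beside 6.02% of all 23383 genes. It read 6.83 to 7.37 on the high arrays and 6.12 to 6.78 on the low ones, with a gap of 0.055. The second AXIN2 probe was higher by a gap of 0.013, and the third overlapped. These gaps are smaller than the spread within either set of arrays.

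The genes whose brightest probes ran nearest to DKK1 over the 6 arrays were found by the root mean square difference of log2 values after each gene was centred on its own mean, over 23382 genes. They were CYP4F11 (0.342), MALL (0.361), FOS (0.402), CYP4F8 (0.406) and IGFBP1 (0.441), beside a median of 1.04. FOS, a subunit of the AP-1 transcription factor, read 6.24, 8.88 and 6.83 on the 1α,25(OH)2D3-labelled arrays and 8.42, 8.58 and 9.71 on those labelled vehicle. CYP4F11, a fatty acid hydroxylase, read 7.11, 9.38 and 6.87 and then 8.72, 8.97 and 9.70. All 5 of them were low on 1α,25(OH)2D3 replicates 1 and 3, as DKK1 was, which follows from how they were chosen. SFRP1 ranked at 65 in this order with 0.628, TCF7 at 693, NKD1 at 703, and DKK3 was farthest of the members, at 20636. The leukocyte marker CD68, a lysosomal protein that epithelial cells also make, had 8.38, 9.62 and 8.18 on the first label and 10.26, 9.71 and 9.58 on the second. The summed leukocyte markers had a log2 level of 10.2 to 10.6 and 10.6 to 11.0 for the labels, and their part in the DKK1 difference was not tested.

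**Figure D3:**
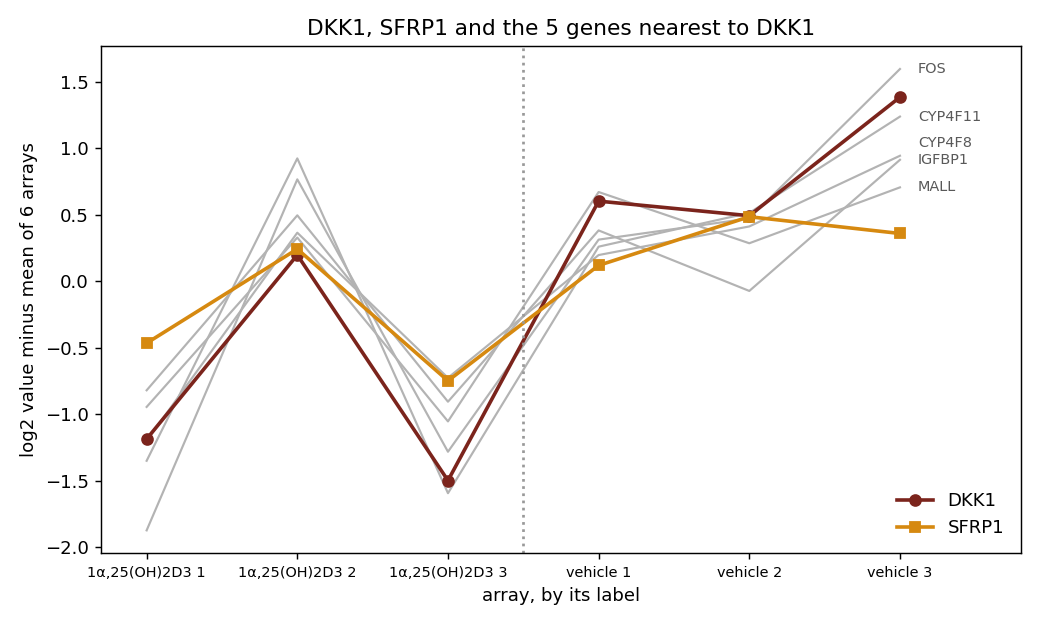
Log2 value minus the mean of the 6 arrays (vertical axis) on each array (horizontal axis, by label) for DKK1, SFRP1 and, in gray, the 5 genes nearest to DKK1, each by its brightest probe. Replicates 1 and 3 of the 1α,25(OH)2D3 label are the lowest for every line. For the gray lines this follows from their choice by likeness to DKK1. SFRP1 has a smaller range than DKK1 and is highest on vehicle replicate 2, where DKK1 is lowest among the vehicle-labelled arrays.

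Beyond these 10, a list of 100 other genes of the pathway held 98 with a probe. Of these, 67 were above background on all 6 arrays by their brightest probe, 19 were above it on none, and 71 could be tested. Limma called 0 of 71 at the unadjusted threshold, beside 0.73% of all genes, and also 0 at the stricter one. The median log2 fold change was -0.0063, with 35 genes above 0 and 36 below. An unadjusted p under 0.05 was found for 5 of 71, and the labelled groups did not overlap for 9 of 71, beside 12.7% of all genes. For 83 of 97 genes the brightest probe matched a protein-coding transcript. When the brightest probe was chosen among such probes alone, which was added after the data were seen, 64 genes could be tested, 0 were called and the median was -0.010.

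Secreted inhibitors outside the 10 genes, a class in which the list also placed the KREMEN receptors, were mostly not measured. Of 14 genes in the class, among them DKK2, SFRP2, WIF1, SOST and NOTUM, 9 were above background on 0 arrays. The 2 tested were the receptor KREMEN1 and DKKL1. Ligands were measured for 13 of 23 genes, with WNT7A at 9.95 to 10.71 and WNT7B at 10.88 to 11.55 over the arrays. All 5 genes of Wnt secretion and receptor turnover were tested, as were 16 of 19 receptors, with LRP6 at 9.64 to 10.31. Among these genes, WNT5B, RNF43, LGR5 and ROR2 were tested by a probe that matches no protein-coding transcript. Their brightest probes of coding transcripts were above background on 0 arrays, or on 1 array for ROR2, and were not tested. The same held in other classes for NKD2 and TNFRSF19, with such probes above background on 1 array each, and TLE2 had none. WNT3, WNT10A and RSPO3 were also counted by a probe of no coding transcript, but for these a probe of a coding transcript was tested too. The median log2 fold change was -0.13 for ligands, 0.19 for receptors, -0.016 for 17 cytoplasmic regulators and 0.026 for 10 nuclear partners. LGR6, a receptor for R-spondins, read 8.87, 8.81 and 8.35 and then 8.31, 7.98 and 7.77, with a log2 fold change of 0.66. TLE3, a co-repressor that binds TCF proteins, read 6.09, 6.19 and 6.35 and then 7.42, 6.78 and 6.41, with -0.66. TLE4, of the same family, went the other way. It read 8.90, 8.65 and 8.56 and then 8.37, 8.03 and 7.84, with 0.62. For LGR6, TLE3 and TLE4 the labelled groups did not overlap, and each had an adjusted p of 0.702 in limma.

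Among 8 tested target genes, MMP7 and FOSL1 had the widest range. MMP7, a matrix-degrading protease, read 12.61, 11.55 and 12.80 on the 1α,25(OH)2D3-labelled arrays and 12.59, 7.58 and 13.41 on those labelled vehicle. Vehicle replicate 2, the same array that was lowest for 4 members, lay far below the other 5. The log2 fold change of MMP7 was 1.13 (adjusted p = 0.824 in limma). FOSL1, an AP-1 subunit, read 10.01, 11.69 and 10.13 and then 9.90, 12.55 and 12.63, with a log2 fold change of -1.08 (adjusted p = 0.726 in limma). CCND1, which drives entry into the cell cycle, had a log2 fold change of -0.018. RSPO3, an R-spondin that strengthens Wnt signals, had -0.79 by its brightest probe, which matches a transcript without a defined coding sequence, and -0.81 by a probe of a coding transcript, with unadjusted limma p-values of 0.0561 and 0.0667. In the order of CYP24A1, KREMEN1, a receptor for DKK1, was higher on the high arrays with a gap of 0.095, and TNKS, an enzyme that marks axins for degradation, was lower with a gap of 0.035. These were 2 of 67 genes, a share below the 6.02% of all genes.

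**Figure D4:**
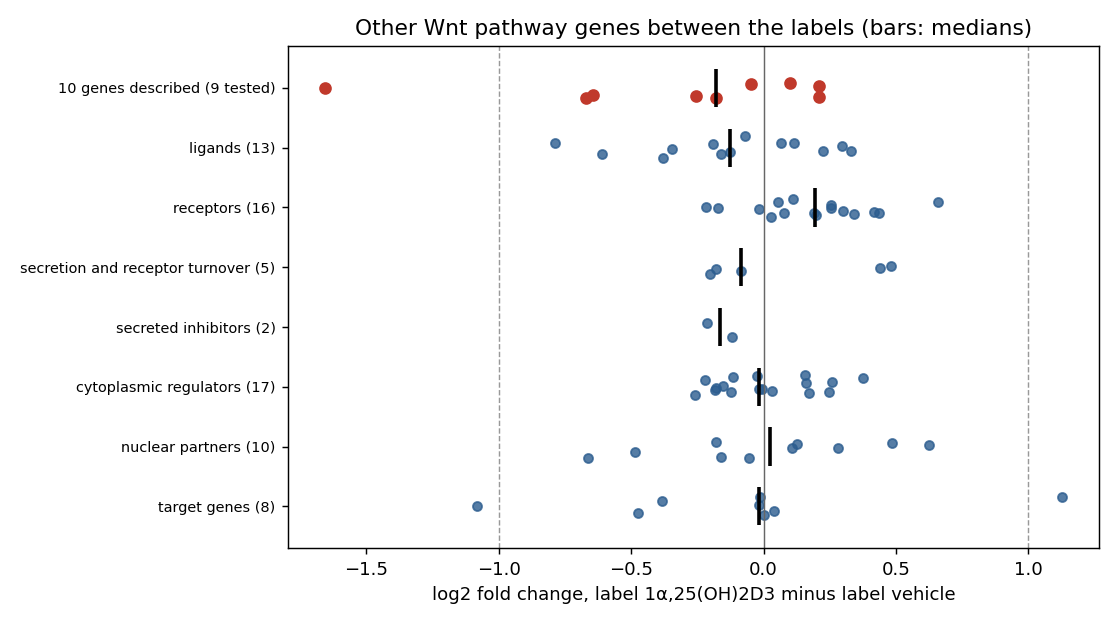
Log2 fold change of the brightest probe between the labels (horizontal axis, 1α,25(OH)2D3 minus vehicle) for the 9 tested genes of the 10 described (red) and the 71 tested genes of the pathway list (blue) by role (vertical axis, with the number tested); black bars are medians and dashed lines mark a fold change of 2. DKK1 is the point farthest left at -1.66, and MMP7 at 1.13 and FOSL1 at -1.08 are the points of the list beyond the dashed lines, neither with an unadjusted p under 0.05. The class of secreted inhibitors includes the receptor KREMEN1.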

How the data were processed

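Total RNA of SKOV3 cells was labelled with Cy3, hybridized to Agilent arrays and read with Agilent Feature Extraction 10.7.1.1, per the labels and file headers. The authors deposited the scanner intensity of every spot and a table of log2 values. The sorted columns of the deposited log2 table differ by at most 0.00091, so they had been quantile normalized; the lowest rank correlation of a column with its own scanner file was 0.9998. Quantile normalization removes any shift shared by all probes of an array. Its tool is not given in the sources used here. The authors used limma, and the study's results and methods state different thresholds, both given here.

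Here all 125601 probes were matched without mismatch to GENCODE release 44 transcripts (hg38), and 72.1% had a sense match. Spots marked as outliers were left out of detection, which required that a probe's spots well above background were at least as many as its other spots. To be tested, a probe had to be detected in this way on each of the 3 arrays of 1 label or both. These probes were fitted with limma 3.58.1 in R 4.3.3 (lmFit, eBayes, no covariate), and p-values were adjusted by Benjamini-Hochberg over 63377 probes. The fit was tested on simulated data with known changes. Named genes are all 10 members with every probe, the 5 genes of the pathway list with the largest fold change, those that do not overlap in the order of CYP24A1, the 5 genes nearest to the member with the largest SD, and cell type markers. Other names of the pathway list were chosen after their values were seen. The members and lists were chosen with earlier results of these data known. Alternatives were the scanner signal scaled to the 75th percentile, normexp background correction with an offset of 50, other filters, the slide or the replicate number as a block, the methods' t-test (stated there for the quantitative data, with limma for the arrays), another probe of a gene and each array left out.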

Additional observations from a re-analysis of the deposited data

How the results depend on the processing

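The DKK1 log2 fold change kept its sign and its place past the unadjusted threshold under all 15 alternatives, from -2.32 within slide 2 to -1.08 with its second probe, and its adjusted limma p lay between 0.287 and 0.9995. For every member, the other filters, the replicate block and the t-test reuse the main values. There only the p-value could change, not the sign or size of the log2 fold change. The slide block and slide 2 alone give the same log2 fold change as each other, so the alternatives are not independent. For DKK1, leaving out 1 array at a time gave -2.17 (without 1α,25(OH)2D3 replicate 2) to -1.32 (without replicate 3), and the methods' t-test gave an unadjusted p of 0.0490. Of 134 alternative log2 fold changes of members, 121 kept their sign and call, 3 newly passed the threshold and 10 changed sign. CTNNB1 became -0.13 and MYC 0.26 with the slide as a block and within slide 2, where the lone array labelled 1α,25(OH)2D3 is assumed to vary like the others. With 1 array left out, MYC ranged from -0.58 to 0.30 (0.063 without 1α,25(OH)2D3 replicate 1), AXIN2 from -0.40 to 0.22 (0.036 without vehicle replicate 3), DKK3 from -0.16 to 0.41 and TCF7L2 from -0.041 to 0.59, where vehicle replicate 2 turned the sign of the last pair and vehicle replicate 1 gave the 0.22 of AXIN2. SFRP1 was -1.07 within slide 2 and ranged from -0.93 to -0.43 with an array left out, and its unadjusted limma p of 0.0430 rose above 0.05 without 1α,25(OH)2D3 replicate 1 or 3 and without vehicle replicate 2 or 3. NKD1 ranged from -1.08 without vehicle replicate 1 to -0.34 without vehicle replicate 2.

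The count of members past the unadjusted threshold was 2 with the slide as a block and 2 within slide 2 (DKK1 and SFRP1) and 1 to 2 with an array left out (DKK1 and NKD1 without vehicle replicate 1). In the pathway list it was 0 to 3 with an array left out (RSPO3 without 1α,25(OH)2D3 replicate 3, and ASCL2, FOSL1 and FZD8 without vehicle replicate 1). Over all probes the 472, of which 308 were higher and 164 lower, became 34 with normexp (15 higher, 19 lower), 1612 without a filter (872, 740), 157 with a filter on all 6 arrays (94, 63), 808 with the slide as a block (402, 406), 1507 within slide 2 (1106, 401), 139 with the methods' t-test (93, 46) and 329 to 1526 with an array left out. At the threshold of the methods 0 probes passed except 4 without vehicle replicate 1. Samples of the same number did not deviate together (correlations 0.12, 0.09 and -0.03), and with the replicate number as a block, 582 probes and 1 member, DKK1 at -1.66, passed the unadjusted threshold. Of 192 values of member probes, 133 were well above background, also when every spot had to be. The cause of these changes was not tested.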
